A study of Mus musculus with 151 samples.

Results

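Single oocytes from mice conceived by in vitro fertilization (IVF) were compared across age, 50 in all, with 40 oocytes from females of 12 weeks and 10 from females of 39 weeks, out of 151 samples in the whole series. The members were taken by their treatment and age labels, and all genes were kept. No measured value entered that rule, but earlier results of these data were known when it was chosen. The females were offspring of CF-1 eggs fertilized in vitro with B6/SJL sperm, and the Natural animals of the same study were conceived by mating between the same stocks. At both ages they were superovulated with equine and then human chorionic gonadotropin before the oocytes were collected, so every oocyte described here came from a hormonally stimulated animal. Each oocyte was lysed on its own and made into a library by a modified SMART-seq protocol. The 40 oocytes of 12 weeks fell into 5 sets of 8 by their library names, and the animals behind the 10 oocytes of 39 weeks are not named in the sources used here. The ages were made as separate libraries at different depth, so age and library batch cannot be told apart in any difference between them, and depth per oocyte was made equal in an alternative given below.

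A fully grown oocyte has largely stopped transcribing, and its RNA is a stored pool that is kept silent by binding proteins and short poly(A) tails, then translated and degraded in a programmed order as meiosis resumes. Maternal age is known to affect the cohesin that holds chromosomes together, the spindle and the mitochondria of mammalian oocytes. A difference in a transcript between oocytes can therefore stand for a difference in what was stored as well as in what was degraded, and the counts do not separate these.

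Sequencing depth was lower in the young oocytes. Counts assigned to genes ranged from 969774 to 10270378 per oocyte at 12 weeks (median 5055610) and from 2820748 to 31126357 at 39 weeks (median 18035837). The number of genes with at least 1 count ranged from 11555 to 15946 at 12 weeks and, leaving out replicate 7, from 11277 to 14842 at 39 weeks. Transcripts of oocyte markers were found in all libraries, with 17 to 20 of 20 markers at 1 count or more at 12 weeks and 18 to 20 at 39 weeks. Their levels differed, and the summed level was 15429 to 30290 unscaled CPM in 6 young oocytes described below. In the other 34 young oocytes it was 48230 to 81418 unscaled CPM. Markers of the surrounding granulosa and cumulus cells varied. Cyp19a1, aromatase, was above 0 in all 50 oocytes, and Cyp11a1, which starts steroid synthesis, and Inha, the inhibin alpha chain, reached 211 and 140 CPM at 12 weeks and 84.0 and 65.2 CPM at 39 weeks. Amh, the granulosa hormone of small follicles, reached at most 0.73 CPM at 12 weeks and was at 0 in all 10 oocytes of 39 weeks, as was Foxl2. Levels are given as CPM, the counts of a gene relative to all counts of the oocyte, scaled between oocytes by the TMM method.

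Some libraries stood apart from the rest of their age. In 6 of the 40 young oocytes, replicates 17, 19, 22 and 23 of set 3 and replicates 26 and 27 of set 4, the median correlation with the other young IVF oocytes was 0.516 to 0.668, against 0.912 to 0.946 for the other 34. These 6 oocytes held almost none of several abundant maternal transcripts. H1foo, the linker histone of the oocyte, was at 81.2 to 147 CPM in the 6 and at 10261 to 24014 CPM in the 34. Gdf9, the growth factor through which the oocyte directs its cumulus cells, was at 183 to 416 CPM against 9537 to 28268 CPM. Mos, the kinase that holds the egg at metaphase of the second division, was at 2.03 to 10.6 CPM against 448 to 2400 CPM. Bub1b, a spindle checkpoint kinase, Zar1, which binds stored maternal mRNA, and Plat, tissue plasminogen activator, were low in the same way, each without overlap.

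The loss was not general. In the 6 oocytes, Bmp15, the partner of Gdf9, was at 2320 to 4243 CPM, within the 2462 to 6328 CPM of the other 34 apart from its lower end. Zbed3, a maternal factor of the subcortical complex, was at 24860 to 34440 CPM against 17280 to 34440 CPM. Over genes with a mean of at least 5 CPM, 1261 of 7037 were lower in all 6 than in all 34, and 433 were higher. Among the transcripts that were higher was Stk11, a kinase upstream of AMPK, at 115 to 263 CPM against 2.67 to 25.2 CPM. Zfp352, a transcript known from the early embryo, was at 4.39 to 278 CPM in the 6 and at no more than 1.47 CPM in the others. Their depth was 969774 to 3130597 counts, and the mitochondrially encoded share of their counts had a median of 1.08%, against 0.278% in the other 34. By the same limit on correlation, 4 of 36 Natural oocytes of 12 weeks and 2 of 9 of 39 weeks stood apart, and none of the 10 IVF oocytes of 39 weeks did. Zfp352 was at 0 in the 4 Natural oocytes of 12 weeks, unlike in the 6 IVF oocytes. Of the 2 Natural oocytes of 39 weeks, replicate 6 was at 0 and replicate 9 at 88.2 CPM, within the range of the 6 IVF oocytes.

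The 39-week oocyte numbered replicate 7 was unlike the other 9 in another way. It had the lowest depth of its age, 2820748 counts, and yet 23116 genes detected. It carried transcripts of spermatids, with Prm1 at 34.9 CPM and Prm2 at 55.0 CPM, which encode the protamines of sperm chromatin, and Tnp1 at 32.0 CPM and Tnp2 at 47.0 CPM, the transition proteins that precede them. Prm1, Tnp1 and Tnp2 were at 0 in each of the other 9, and Prm2 was at most 1.37 CPM there. Its oocyte transcripts were in place, with Gdf9 at 22790 CPM and Mos at 861 CPM. Results below are given with all 50 oocytes, and counts for gene lists also without the 6 young oocytes where they change.

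**Figure D1:**
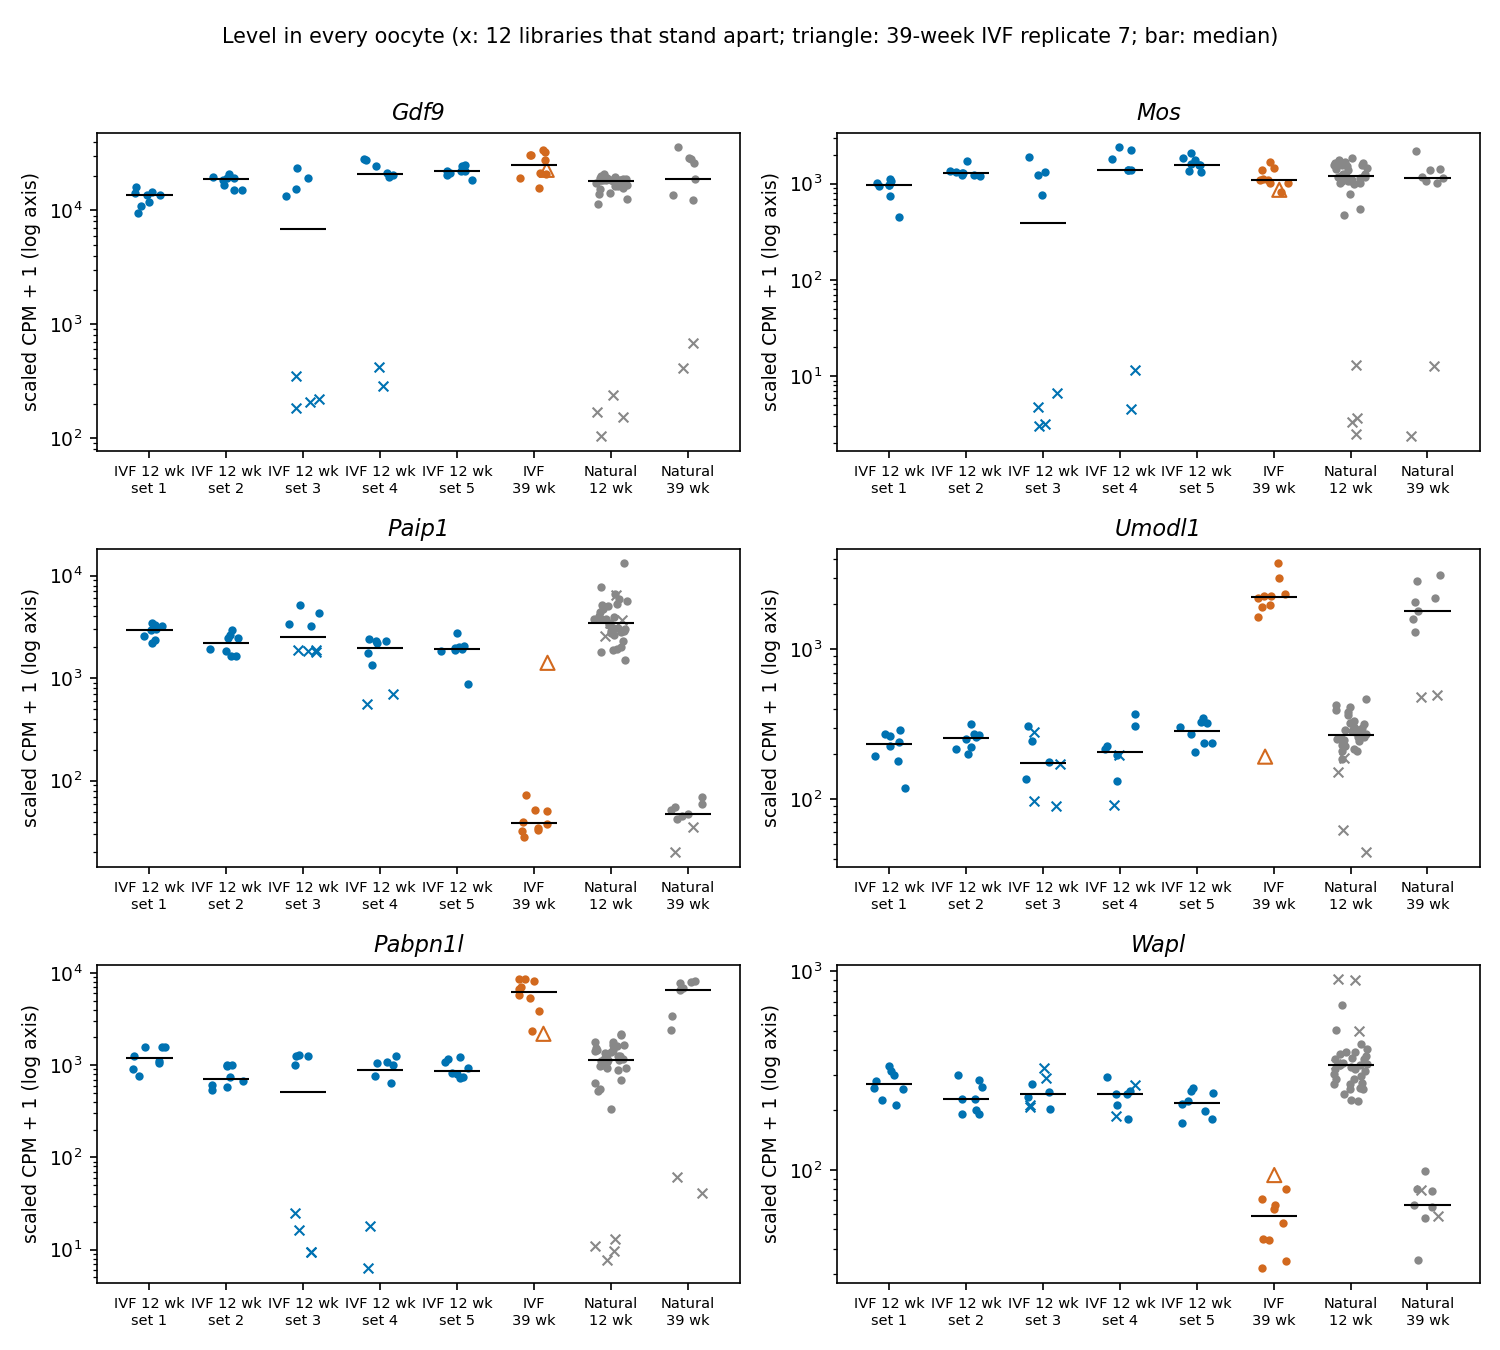
Level of 6 genes in every oocyte, as scaled CPM plus 1 on a log axis, for the 5 IVF sets of 12 weeks, the 10 IVF oocytes of 39 weeks and the Natural oocytes of both ages, with a bar at each median, crosses for the libraries that stood apart and a triangle for 39-week IVF replicate 7. The 6 crosses in IVF lie at 183 to 416 for Gdf9 against 9537 to 28268 in the other 34 oocytes of 12 weeks, whereas for Wapl they lie among the others, and replicate 7 is at 1411 for Paip1 where the other 9 oocytes of 39 weeks are at 27.3 to 72.3.

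The first comparison asked which transcripts differed between IVF oocytes of 12 and 39 weeks. Counts were summed over each 12-week set and over the 10 oocytes of 39 weeks, and 18984 genes were tested with edgeR's quasi-likelihood test at a Benjamini-Hochberg adjusted p below 0.05. In a sum each oocyte counted by its depth, which at 39 weeks ran from 2820748 counts in replicate 7 to 31126357 in replicate 8. Transcripts of 696 genes were higher at 39 weeks (3.67% of those tested) and 360 were lower (1.9%), together 5.56%. The median log2 fold change over all genes tested was -0.06. The error of each fold change came from the spread between the 12-week sets, since the 39-week sum was a single value and was assumed to vary as a set does. Differences between sets made up 20.5% of the variation in log2 CPM among the 40 young oocytes, with 10.3% of its degrees of freedom.

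Without the 6 oocytes that stood apart the counts of genes past the test rose to 1347 higher (7.56%) and 1230 lower (6.9%) of 17816 tested, together 14.5%. Of the 696 genes higher in the full comparison 691 passed in the same direction, and of the 360 lower, 356. With every oocyte thinned to 839781 reads, and all 50 kept, 171 genes were higher and 91 lower. Thinned without the 6 oocytes and replicate 7, the numbers were 1305 and 1267. Leaving out a single 12-week set gave between 353 genes higher (without set 2) and 1032 (without set 3), and between 145 lower (without set 4) and 943 (without set 3). Levels in single oocytes separated the ages completely for few genes. In 114 of the 18984 tested genes (0.601%) no oocyte of one age reached the range of the other, and these included 23 of the 696 higher and 75 of the 360 lower genes. Without the 6 oocytes and replicate 7 the number was 579 (3.05%), among them 214 of the higher and 203 of the lower genes.

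**Figure D2:**
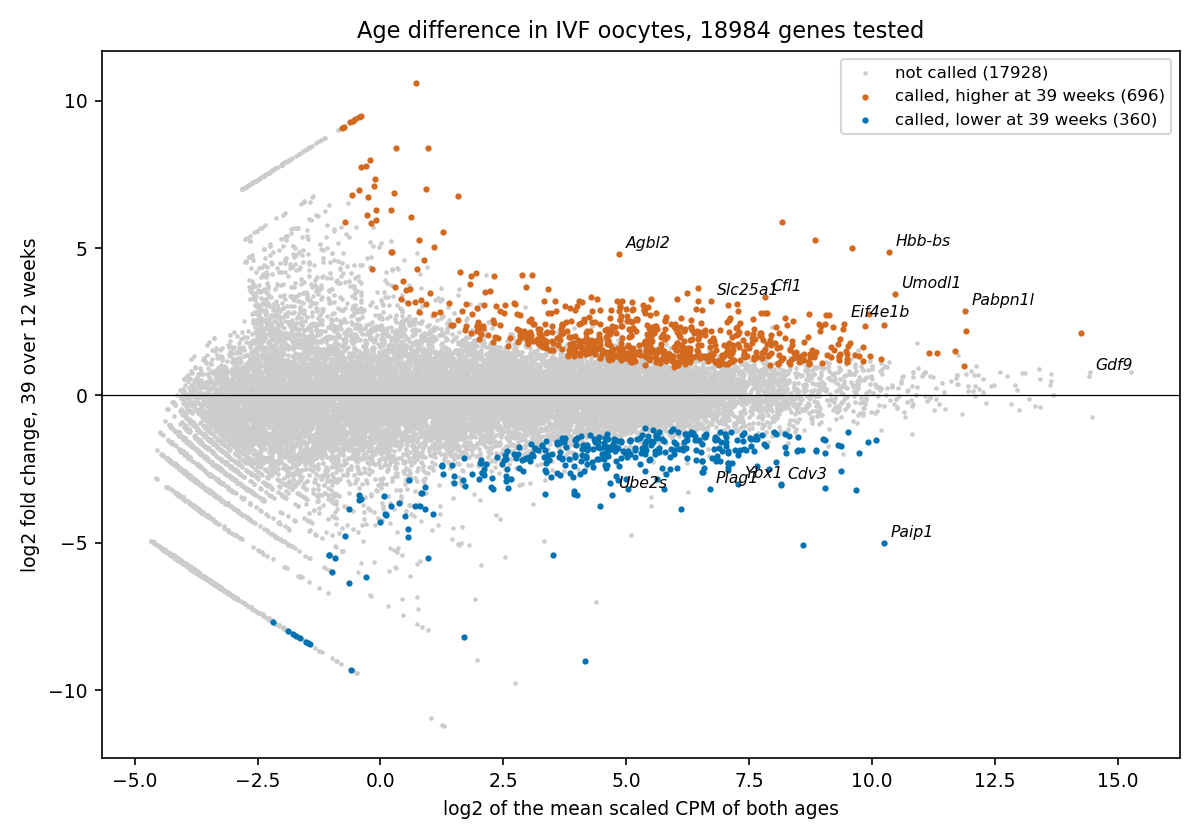
Log2 fold change of 39 over 12 weeks in IVF oocytes (vertical axis) against the log2 of the mean scaled CPM of both ages (horizontal axis), 1 point per tested gene, with genes past the test in colour. The 696 higher and 360 lower genes span the range of levels, with Paip1 at -5.00 and Umodl1 at 3.45 among the most abundant, and Gdf9 near the top of the range of levels at 0.67.

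Of the 10 largest rises among genes whose ages did not overlap, Pabpn1l had the highest level. It encodes the poly(A)-binding protein of oocytes and early embryos that takes part in the clearance of maternal mRNA. Its level was 5.28 to 1576 CPM (median 956) at 12 weeks and 2192 to 8617 CPM (median 6234) at 39 weeks, a log2 fold change of 2.87 ± 0.29 (SE, adjusted p = 0.00134). The 6 oocytes that stood apart were at 5.28 to 24.2 CPM, and the other 34 still ended at 1576 CPM, below the lowest oocyte of 39 weeks. Without the 6 the log2 fold change was 2.56 ± 0.20 (SE, adjusted p = 8.4e-05). The gene lies on chromosome 8, bases 122619471 to 122622735 (GRCm38).

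Slc25a1, the mitochondrial citrate carrier, was at 2.11 to 34.1 CPM (median 20.0) in young and at 54.4 to 255 CPM (median 170.5) in older oocytes, a log2 fold change of 3.21 ± 0.32 (SE, adjusted p = 0.00131). Xylb, xylulokinase, rose from a median of 3.56 to 32.8 CPM (log2 fold change 3.28 ± 0.34). Neither gene overlapped between the ages, and in both the lowest oocyte of 39 weeks was replicate 7.

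Cfl1, cofilin, which severs actin filaments, was at 10.8 to 91.4 CPM (median 33.9) at 12 weeks and at 94.6 to 518 CPM (median 418) at 39 weeks, a log2 fold change of 3.34 ± 0.32 (SE, adjusted p = 0.00131). Of the 10 older oocytes replicate 7 was the lowest, and without it the range was 225 to 518 CPM. Cfl1 has processed copies in the genome, so reads of it may be divided among them. Agbl2, a carboxypeptidase that acts on tubulin tails, had the largest of the 10 rises without overlap, from 0 to 8.21 CPM (median 1.53) to 34.0 to 66.8 CPM (median 45.6), a log2 fold change of 4.79 ± 0.47 (SE, adjusted p = 0.00131). H2-Aa, an alpha chain of MHC class II, was at 1.66 to 19.9 CPM (median 7.16) and 20.5 to 87.4 CPM (median 47.0) (log2 fold change 2.89 ± 0.44, adjusted p = 0.00679). Ece2, an endothelin-converting enzyme, Card6 and Ccdc71 were also among the 10 genes with the largest non-overlapping rise, with log2 fold changes of 2.66, 2.91 and 3.01.

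Among the 10 largest falls without overlap was Ybx1, a Y-box protein that packages mRNA. It was at 107 to 390.3 CPM (median 272) at 12 weeks and at 14.1 to 73.5 CPM (median 37.0) at 39 weeks, a log2 fold change of -3.01 ± 0.37 (SE, adjusted p = 0.00282). Hnrnpab, an RNA-binding protein of the hnRNP family, went from a median of 45.0 to 7.18 CPM (log2 fold change -2.72 ± 0.33). Ube2s, the enzyme that elongates ubiquitin chains for the anaphase-promoting complex, was at 18.2 to 100.4 CPM (median 43.6) and then at 1.85 to 16.3 CPM (median 3.89), a log2 fold change of -3.36 ± 0.45 (SE, adjusted p = 0.00387). Rfwd2, a ubiquitin ligase also known as Cop1, fell from a median of 49.3 to 6.19 CPM (log2 fold change -2.89 ± 0.40). Ybx1 and Ube2s have related or processed copies, and their counts are uncertain to that extent.

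Of the same 10 falls, Plag1, a zinc finger factor, was at 89.5 to 414 CPM (median 154) in young oocytes and at 3.64 to 73.9 CPM (median 13.7) in older ones, a log2 fold change of -3.19 ± 0.60 (SE, adjusted p = 0.0168). Replicate 7 held the highest of the 39-week levels, and the other 9 ended at 32.8 CPM. Rfx5, a factor known for its action on MHC class II promoters, fell by 2.67 on the log2 scale, while H2-Aa rose as given above. Nucks1, a chromatin-bound protein, fell by 2.78. Cdv3 was at 309 to 844 CPM (median 491) and at 23.6 to 278 CPM (median 36.5), and replicate 7 was again the highest, with the others at 23.6 to 100.3 CPM. Tmem65, of the inner mitochondrial membrane, and Tmem169, of unknown function, fell by 2.69 and 2.67.

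Paip1 and Umodl1 were singled out after their values were seen, because all but 1 of the older oocytes lay outside the young range. Paip1 encodes a partner of poly(A)-binding protein that promotes translation, on chromosome 13, bases 119428331 to 119460323 (GRCm38). It was at 562 to 5218 CPM (median 2200) in the 40 young oocytes, at 27.3 to 72.3 CPM in 9 of the 10 older oocytes and at 1411 CPM in replicate 7. Its log2 fold change was -5.00 ± 0.46 (SE, adjusted p = 0.00127). Umodl1, a uromodulin-like membrane protein, had the opposite pattern, at 89.2 to 368 CPM (median 237) in young oocytes, at 1640 to 3766 CPM in the same 9 older oocytes and at 191 CPM in replicate 7 (log2 fold change 3.45 ± 0.25, adjusted p = 0.000629). For both genes the level in replicate 7 lay within the range of the 40 young oocytes.

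The 6 young oocytes that lacked Gdf9 and Mos were on the young side for both genes, at 562 to 1900 CPM of Paip1 and 89.2 to 279 CPM of Umodl1. The 2 Natural oocytes of 39 weeks that stood apart were on the older side for Paip1, since all 9 Natural oocytes of that age lay between 19.1 and 67.8 CPM. For Umodl1 they were at 476 and 491 CPM, just above the 185 to 461 CPM of the 32 other young Natural oocytes and below the 1309 to 3110 CPM of the other 7 older ones. Pabpn1l differed from these and was near absent from the libraries that stood apart at either age.

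The most abundant transcripts did not pass the test. The 5 genes with the highest mean over the 12-week sets were Gdf9, H1foo, Zbed3, Spin1, a spindlin that binds the meiotic spindle, and Khdc1b, a member of an oocyte-expressed family with near-identical copies. Their levels had log2 fold changes of 0.67 ± 0.42, 0.80 ± 0.36, 0.81 ± 0.24, -0.73 ± 0.27 and 0.01 ± 0.27. Of these 5, Spin1 (-0.88, adjusted p = 0.00496) and Zbed3 (0.71, adjusted p = 0.0116) passed without the 6 oocytes.

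Zp1, Zp2 and Nobox, a transcription factor of oocyte genes, rose at 39 weeks. Zp2 and Zp1, glycoproteins of the zona pellucida, were 2 of the 9 tested genes of egg coat and sperm recognition that rose, and 0 fell (list median 0.16, against -0.06 over all genes tested). Zp2 was at 48.8 to 206 CPM (median 89.6) at 12 weeks and at 51.5 to 679.9 CPM (median 478) at 39 weeks, a log2 fold change of 2.13 ± 0.33 (SE, adjusted p = 0.00759). Replicates 7 and 8 were the 2 older oocytes inside the young range, and the 9 without replicate 7 were at 185 to 680 CPM. Zp1 was at 4.41 to 267 CPM (median 92.3) and at 139 to 438 CPM (median 367) (log2 fold change 1.89 ± 0.39). Zp3, the third glycoprotein of this coat, had a log2 fold change of 1.06 ± 0.52 and did not pass (adjusted p = 0.297). Nobox was at 27.5 to 132 CPM (median 64.5) and at 44.8 to 417 CPM (median 293), a log2 fold change of 2.25 ± 0.29 (SE, adjusted p = 0.00347), and here too replicate 7 was the only older oocyte within the young range.

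Across all genes tested 3.67% rose, and 7.56% without the 6 oocytes. Of 19 oocyte markers tested, 5 rose and 0 fell, with a median of 0.67, and 6 and 0 without the 6 oocytes (median 0.44). Beside Zp1, Zp2 and Nobox these were Dppa3, which guards maternal methylation in the zygote, at 658 to 1784 CPM (median 1367) and 1666 to 7230.1 CPM (median 3219) (log2 fold change 1.43 ± 0.26), and Nlrp5, of the subcortical maternal complex, at 49.6 to 341 CPM (median 184) and 112 to 591 CPM (median 444) (log2 fold change 1.25 ± 0.30). Among 28 maternal effect genes 2 rose and 1 fell (median 0.38), and without the 6 oocytes 4 rose and 2 fell. In the full comparison the one that fell was Ctcf, the insulator protein, from a median of 53.3 to 26.7 CPM (log2 fold change -1.09 ± 0.27, adjusted p = 0.0491). Dppa3 and Nlrp5 have related copies that can share reads.

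Factors that store, translate and degrade maternal mRNA moved in both directions. Of 46 tested, 5 rose and 5 fell, and without the 6 oocytes 6 rose and 13 fell of 45. Over all genes tested 3.67% rose and 1.9% fell, and without the 6 oocytes 7.56% and 6.9%, and the counts of each list are to be read against these shares. Eif4e1b, the oocyte form of the cap-binding protein, was at 53.1 to 422 CPM (median 216) in young and 420.1 to 1822 CPM (median 1111) in older oocytes, a log2 fold change of 2.44 ± 0.37 (SE, adjusted p = 0.00721). Replicate 7, at 420 CPM, was the only older oocyte within the young range. Elavl2, an RNA-binding protein that acts on AU-rich messages, was at 139 to 324 CPM (median 214) and 22.0 to 114 CPM (median 38.6), a log2 fold change of -2.29 ± 0.33 (SE, adjusted p = 0.00512), without overlap. Pabpn1l and Ybx1, described above, belonged to this list as well. The others past the test were Lsm14b and Lsm14a, proteins of RNA granules that hold mRNA silent, and Cpeb4, which binds the cytoplasmic polyadenylation element, at -2.22, -1.38 and -1.59, and Eif4enif1, a repressor that binds the cap-binding protein, Cnot3, of the deadenylase complex, and Mettl3, the m6A methyltransferase, at 1.34, 1.15 and 1.47. Among 46 splicing and RNA processing factors 4 rose and 5 fell, and 5 and 8 without the 6 oocytes. Hnrnpu fell by 2.29, Srsf2 by 1.82 and Rbm5 by 1.69 on the log2 scale, and Hnrnpa1 rose by 1.45 ± 0.26, these being RNA-binding proteins of exon choice and mRNA packaging. The subunits of U2AF, which marks the end of introns, differed in sign, with U2af1 at 1.74 and U2af2 at -2.08.

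Chromatin regulators were divided as well, with 3 higher and 4 lower of 51 (median 0.03), and 5 higher and 10 lower without the 6 oocytes. Ezh2, the methyltransferase of H3K27, was at 148 to 935 CPM (median 604) and then at 106 to 279 CPM (median 147), a log2 fold change of -1.86 ± 0.32 (SE, adjusted p = 0.0118). The ranges overlapped only through the 6 oocytes, as the other 34 were at 482 to 935 CPM. Smarca5, an ISWI remodelling ATPase, fell from a median of 86.0 to 15.6 CPM (log2 fold change -1.93 ± 0.37), with the other 34 at 55.4 to 121 CPM and the older oocytes at 11.8 to 30.1 CPM. Kmt2d, a methyltransferase of H3K4, rose from a median of 278 to 729 CPM (log2 fold change 1.39 ± 0.24). Hdac2, a histone deacetylase, and Suv39h2, a methyltransferase of H3K9, fell by 1.82 and 1.70 on the log2 scale, and Kat7, an acetyltransferase, rose by 1.34.

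Cohesin is the ring that holds sister chromatids together through the long arrest of the oocyte. Of 22 tested genes of cohesin and its regulators 1 rose and 2 fell, and without the 6 oocytes 3 rose and 6 fell. The full count is 13.6% of the list, against 5.56% of all genes. Wapl, which releases cohesin from chromosomes, was at 170.1 to 332 CPM (median 241) in young oocytes and at 30.9 to 93.0 CPM (median 57.6) in older ones, without overlap, a log2 fold change of -2.03 ± 0.31 (SE, adjusted p = 0.00689). The 6 oocytes that stood apart lay at 186 to 324 CPM, among the other young oocytes. Ppp2r5c, a regulatory subunit of the phosphatase that protects cohesin at centromeres, was at 79.6 to 180.3 CPM (median 101) and 20.2 to 64.7 CPM (median 30.0) (log2 fold change -1.51 ± 0.29), also without overlap. Cdca5, sororin, which counters Wapl, was at 121 to 302 CPM (median 197) and 203 to 524 CPM (median 421), and rose by 1.08 ± 0.26 (adjusted p = 0.0417).

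Of 42 genes of the kinetochore, the spindle checkpoint and the Aurora kinases only Aurkb, the kinase of the chromosomal passenger complex, passed the test, from a median of 15.8 to 53.7 CPM (adjusted p = 0.0276). Without the 6 oocytes 5 rose and 1 fell. Of 37 genes of spindle assembly 4 rose and 0 fell. These were Tubb5, a beta-tubulin with near-identical relatives (1.54 ± 0.27), Fmn2, the formin that moves the spindle to the cortex (1.28 ± 0.25), Tacc3, a spindle protein (1.32 ± 0.27), and Tubg1, gamma-tubulin (1.20 ± 0.28). Fmn2 was at 22.1 to 99.3 CPM (median 44.0) and 71.6 to 149 CPM (median 99.2), with 5 of the older oocytes inside the young range. The list had 5 genes higher and 5 lower without the 6 oocytes.

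Of 39 regulators of meiotic arrest and resumption 1 rose and 3 fell, Ube2s among them, and 5 and 4 without the 6 oocytes. Cdc25a, a phosphatase that activates Cdk1, was at 17.1 to 96.0 CPM (median 53.1) in young and 4.90 to 23.5 CPM (median 11.4) in older oocytes, a log2 fold change of -2.10 ± 0.46 (SE, adjusted p = 0.0300). Without the 6 the young oocytes started at 37.6 CPM, above the older range. Prkaca, the catalytic subunit of the kinase through which cAMP holds arrest, fell by 1.47 on the log2 scale, and Ccnb3, the cyclin needed for anaphase of the first division, rose from a median of 19.4 to 42.5 CPM (log2 fold change 1.49 ± 0.32). Mos and Bub1b did not pass, with log2 fold changes of 0.01 ± 0.44 and -0.05 ± 0.40. Set 3 held 4 oocytes with almost none of these transcripts.

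Among 26 genes of calcium signalling and egg activation 1 rose, Zp2, and 2 fell (median -0.45), and without the 6 oocytes 1 rose and 6 fell of 25. Ppp3r1, the regulatory subunit of calcineurin, was at 235 to 566 CPM (median 345) and 58.7 to 153 CPM (median 97.7), without overlap, a log2 fold change of -1.73 ± 0.28 (SE, adjusted p = 0.00925). Trpm7, a channel that carries calcium and magnesium into the egg, fell by 1.38 ± 0.34 (SE) on the log2 scale.

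The mitochondrial genome gave no gene past the test. The 9 tested of 13 mitochondrially encoded genes all had values below 0, with a median log2 fold change of -0.86 (-0.81 without the 6 oocytes). COX1, of complex IV, was at 399 to 3958 CPM (median 889) and 306 to 1303 CPM (median 712) (log2 fold change -0.59 ± 0.43, adjusted p = 0.510), and CYTB, of complex III, at 531 to 4342 CPM (median 948) and 508 to 967 CPM (median 665) (-0.42 ± 0.30, adjusted p = 0.504). The mitochondrially encoded share of all counts was 0.121 to 2.02% at 12 weeks (median 0.292%) and 0.114 to 0.336% at 39 weeks (median 0.174%), and the largest of the older values was that of replicate 7. Reads of these genes can be shared with nuclear copies.

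Of the nuclear genes of the mitochondrion, none of 36 complex I subunits passed (median 0.13), and of 41 subunits of complexes II to V, Atp5a1 and Atp5b, the alpha and beta chains of ATP synthase, rose. Atp5b was at 91.8 to 566 CPM (median 437) and 359.7 to 1302 CPM (median 911) (log2 fold change 1.23 ± 0.27), and Atp5a1 rose by 1.34 ± 0.25. In mitochondrial dynamics and genome upkeep 4 of 33 rose and 2 fell, and 6 and 3 without the 6 oocytes. Dnm1l, which divides mitochondria, was at 47.5 to 160.5 CPM (median 113) and 71.6 to 388 CPM (median 301) (1.30 ± 0.24), whereas Opa1, which fuses the inner membrane, was at 21.7 to 70.9 CPM (median 36.4) and 7.15 to 19.1 CPM (median 14.0), lower without overlap (-1.49 ± 0.31, adjusted p = 0.0260). Phb2, a prohibitin, rose by 1.71 ± 0.24, and Park2, parkin, rose from a median of 1.70 to 6.40 CPM. Polg, the polymerase of mitochondrial DNA, fell by 2.51 on the log2 scale, and Tfb1m, a methyltransferase of mitochondrial ribosomal RNA, rose by 1.73.

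None of 86 cytosolic ribosomal proteins passed (median -0.11), Rps27l, the most abundant, being at 21.9 to 232 CPM (median 83.8) and 45.7 to 146 CPM (median 67.0), and of 77 mitochondrial ones 3 rose and 0 fell (median 0.34), 9 and 0 without the 6 oocytes (median 0.19). The 3.9% of mitochondrial ones called was near the 3.67% of all genes that rose. Mrps27, of the small mitochondrial subunit, was at 6.86 to 29.2 CPM (median 18.7) and 14.1 to 153 CPM (median 73.9), a log2 fold change of 2.24 ± 0.28 (SE, adjusted p = 0.00282). Mrpl22 and Mrpl2 rose by 2.18 ± 0.42 and 1.21 ± 0.30.

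Redox enzymes included 3 that rose and 1 that fell of 41 (median 0.27), and 6 and 3 without the 6 oocytes. G6pdx, which supplies NADPH as the first enzyme of the pentose phosphate pathway, was at 91.9 to 1108 CPM (median 259.6) in young oocytes and 159 to 2049 CPM (median 938) in older ones, a log2 fold change of 1.91 ± 0.31 (SE, adjusted p = 0.00893). Glrx, glutaredoxin, was at 4.28 to 138 CPM (median 87.0) and 48.6 to 437 CPM (median 336) (2.02 ± 0.34). Gclm, the modifier subunit of the enzyme that starts glutathione synthesis, fell from a median of 32.8 to 6.01 CPM, a log2 fold change of -2.31 ± 0.43 (SE, adjusted p = 0.0156), and outside the 6 oocytes its ranges, 17.6 to 51.4 CPM and 1.72 to 10.1 CPM, were separate. Hmox2, heme oxygenase, rose by 2.16 ± 0.42.

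Of 44 heat shock proteins and chaperones 2 rose and 1 fell, and 4 and 3 without the 6 oocytes. Dnajb1, a co-chaperone of Hsp70, was at 67.8 to 371 CPM (median 101) and 142 to 441 CPM (median 322) (1.49 ± 0.26), and Hspb1, a small heat shock protein, went from a median of 3.46 to 28.4 CPM. Canx, the lectin chaperone calnexin, fell by 1.29 ± 0.32 (SE) on the log2 scale. Of 36 proteasome subunits Psmb6, a catalytic subunit, rose (1.55 ± 0.26) and Psme3, an activator cap, fell without overlap from 177 to 650.1 CPM (median 274) to 80.2 to 117 CPM (median 96.1).

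Autophagy and lysosome genes had 3 members higher and 2 lower of 35, and 3 and 7 without the 6 oocytes. Rb1cc1, the scaffold of the kinase complex that starts autophagy, was at 77.8 to 237 CPM (median 146) and 9.72 to 49.6 CPM (median 29.5), without overlap, a log2 fold change of -2.61 ± 0.32 (SE, adjusted p = 0.00281). Atg9a, a lipid scramblase of the growing membrane, Atg4b, a protease that processes Atg8 proteins, and Atg14, of the lipid kinase complex, rose by 2.42 ± 0.30, 1.99 ± 0.25 and 1.40 ± 0.22, and Uvrag, a partner of that lipid kinase, fell by 1.96. Foxo3, which restrains follicle activation, was the only one of 35 genes of sirtuin, insulin and mTOR signalling to pass, at 90.8 to 379 CPM (median 216) and 139 to 1098 CPM (median 679.9), a log2 fold change of 1.54 ± 0.23 (SE, adjusted p = 0.00663). In that list 3 genes rose and 5 fell without the 6 oocytes.

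In DNA repair 3 of 68 genes rose and 0 fell, and without the 6 oocytes 7 rose and 3 fell. The 4.41% called in the full comparison was below the 5.56% of all genes. Mutyh, a glycosylase that removes adenine opposite oxidized guanine, was at 0 to 42.1 CPM (median 24.7) and 33.6 to 85.7 CPM (median 53.1) (1.26 ± 0.25), and Parp1 and Mdc1, which act at DNA breaks, rose by 1.78 ± 0.36 and 1.41 ± 0.31. Of 38 senescence and cell death genes 3 fell and 0 rose, and 5 of 37 and 0 without the 6 oocytes. Rb1, the retinoblastoma protein, was at 37.5 to 119 CPM (median 66.3) and 10.6 to 31.0 CPM (median 16.9), without overlap, a log2 fold change of -1.89 ± 0.33 (SE, adjusted p = 0.0128). Bcl2l11, the BH3 protein Bim, fell by 1.86 and Ripk1, a kinase of necroptosis, by 2.37 on the log2 scale. In the piRNA pathway 1 of 23 genes, Gtsf1, which aids Piwi cleavage, rose without overlap from 2.14 to 10.7 CPM (median 7.01) to 12.6 to 30.6 CPM (median 16.1) (1.61 ± 0.32).

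Transcripts of other cell types were measured beside these groups. Of 18 tested cumulus and granulosa markers 0 rose and 1 fell, with a median of -0.68. That gene was Kitl, from a median of 6.06 to 1.18 CPM (log2 fold change -2.28 ± 0.57, adjusted p = 0.0498). The summed level of all 20 markers was 68.1 to 1324 unscaled CPM at 12 weeks, with 5 to 17 of them detected, and 356 to 824 unscaled CPM at 39 weeks, also with 5 to 17. The largest part was Serpine2, at medians of 441 and 482 CPM. Fshr, the receptor for follicle-stimulating hormone, had a median of 0 CPM at 12 weeks and 0.13 CPM at 39 weeks, and Has2, the hyaluronan synthase of the expanding cumulus, a median of 0 CPM at both. Other cumulus genes were high in single oocytes, with Ptgs2 at up to 103 CPM, Ptx3 at up to 68.0 CPM and Tnfaip6 at up to 55.9 CPM at 12 weeks, against 24.4, 8.68 and 21.4 CPM at 39 weeks. In Natural oocytes the median log2 fold change of the cumulus and granulosa markers was -1.63, against -0.68 in IVF. The part of these cells in the age differences was not tested.

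Globin transcripts were the exception among blood and immune markers. Of 11 tested, 4 rose, all of them globins, and 5 of 10 without the 6 oocytes. Hbb-bs was at 0 to 708 CPM (median 15.9) in young oocytes and at 1.99 to 16983 CPM (median 70.1) in older ones, a log2 fold change of 4.86 ± 0.97 (SE, adjusted p = 0.0212). The 3 highest oocytes were replicates 1, 2 and 3, in which globin reads made up 2.70%, 1.38% and 0.428% of all counts. Alas2, the heme synthesis enzyme of red cells, went from a median of 0.28 to 1.27 CPM and did not pass, and Ptprc, the pan-leukocyte marker, had a median of 0 CPM at both ages. In Natural oocytes the median log2 fold change of the blood and immune markers was 4.28, against 2.99 in IVF. The part of other cells in the differences of other genes was not tested. The pairs Hba-a1 and Hba-a2, and Hbb-bs and Hbb-bt, are near-identical copies whose reads cannot be assigned with certainty.

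**Figure D3:**
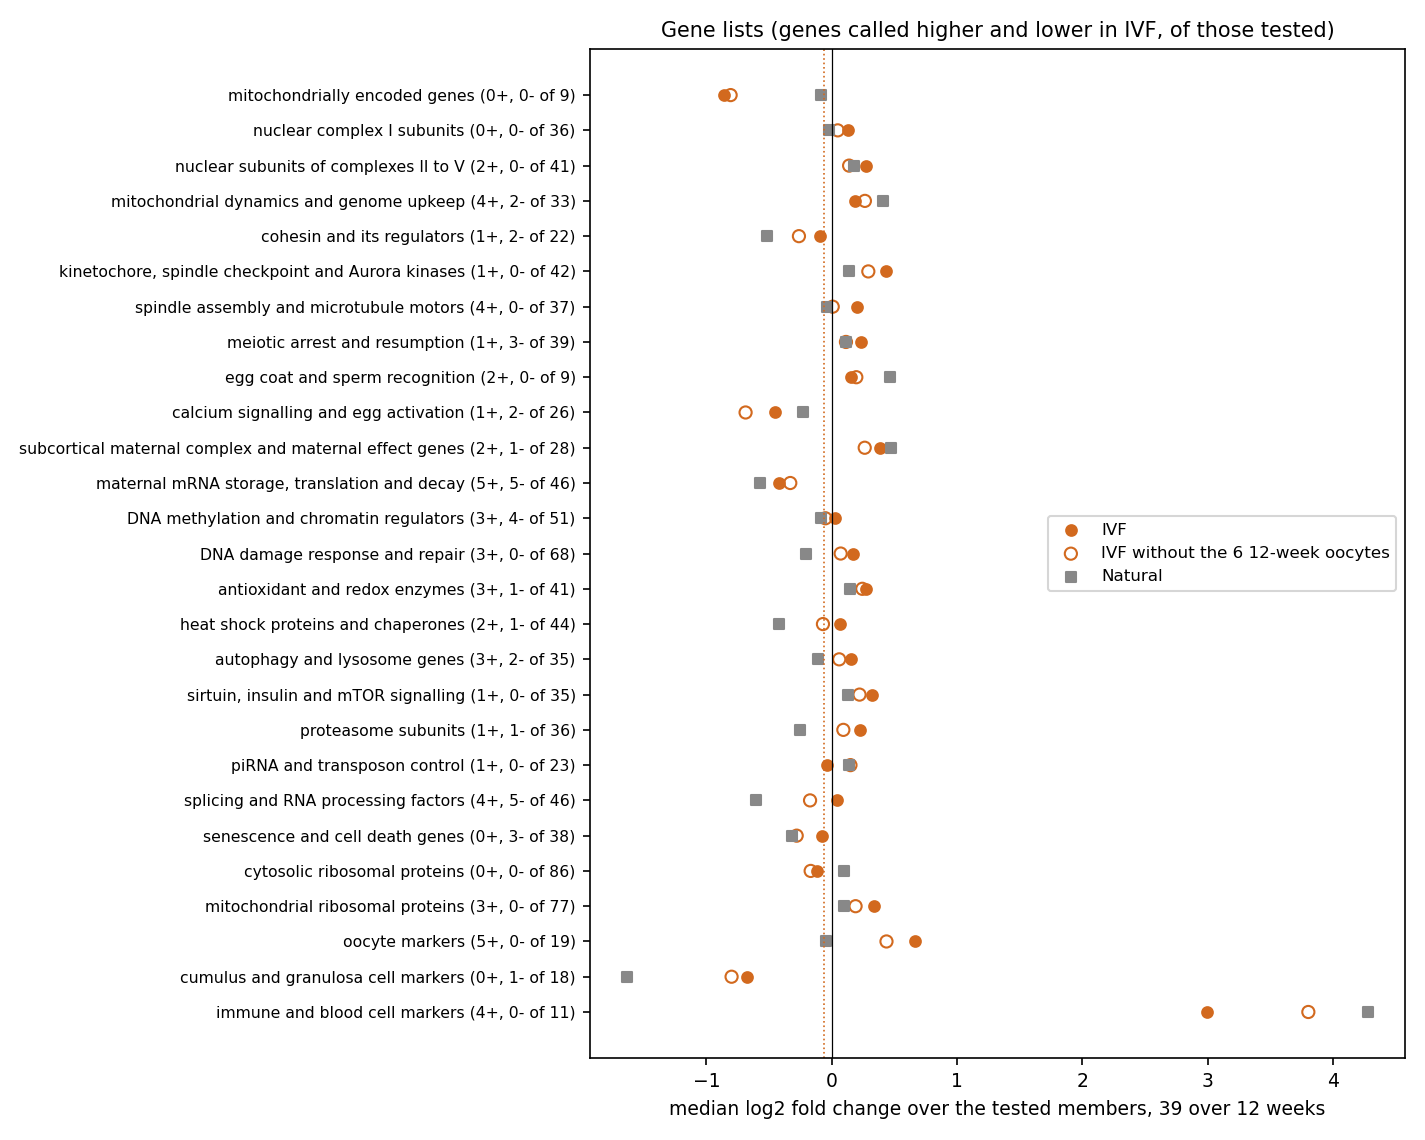
Median log2 fold change of 39 over 12 weeks over the tested members of each gene list in IVF oocytes, in IVF oocytes without the 6 that stood apart and in Natural oocytes, with the numbers of members past the test in IVF beside each name and a dotted line at the median of all genes tested in IVF, -0.06. With all IVF oocytes most lists lie near 0, and the furthest are the blood and immune markers at 2.99 and the mitochondrially encoded genes at -0.86. In Natural oocytes the blood and immune markers are at 4.28 and the cumulus and granulosa markers at -1.63.

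Genes that fell had longer 3′ UTRs than genes that rose, which is given here as a description. Among protein-coding genes with a transcript model, the median 3′ UTR was 2059 bases for the 339 genes that fell, 851 bases for the 621 that rose and 1079 bases for all 14481 tested. The median coding lengths were 1464, 1545 and 1389 bases. When the tested genes were divided by 3′ UTR length into 3 groups of 4827, the median log2 fold change was 0.16 in the group with the shortest, -0.03 in the middle group and -0.24 in the group with the longest. Genes that fell made up 0.746%, 2.34% and 3.94% of these groups, and genes that rose 5.10%, 4.25% and 3.52%. Without the 6 oocytes the medians were 0.15, -0.07 and -0.27, and in Natural oocytes they were 0.18, -0.10 and -0.23. Library batch changes with age here, and its part in this gradient cannot be told apart.

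Each oocyte was then placed between the ages, to see how uniform they were. For every 39-week IVF oocyte the genes were those past the test in a fit without that oocyte. For every 12-week oocyte the fit was without its whole set. Genes also had a mean of at least 20 CPM and medians of the ages at least 1 apart on the log2 scale. This left 408 to 1074 genes, and the lists differed, with 1074 genes for set 3, 415 for set 4 and 812 for replicate 7. In 34 young oocytes 1.19 to 7.08% of these genes were nearer the older median than the young one, and in the 6 that stood apart the share was 17.4 to 29.2%. Of the 10 older oocytes 7 had shares of 89.2 to 98.2%. Replicates 1 and 8 were at 69.9% and 67.2%, and replicate 7 was at 30.8%, close to the 6 young oocytes that stood apart and below every other oocyte of its age. Of the 83 genes named by rule that passed the test, 50 had replicate 7 within the young range, and in 11 it was the only older oocyte there. The 83 include the 10 rises and 10 falls chosen for having no older oocyte in that range. The share over all genes is not given here.

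**Figure D4:**
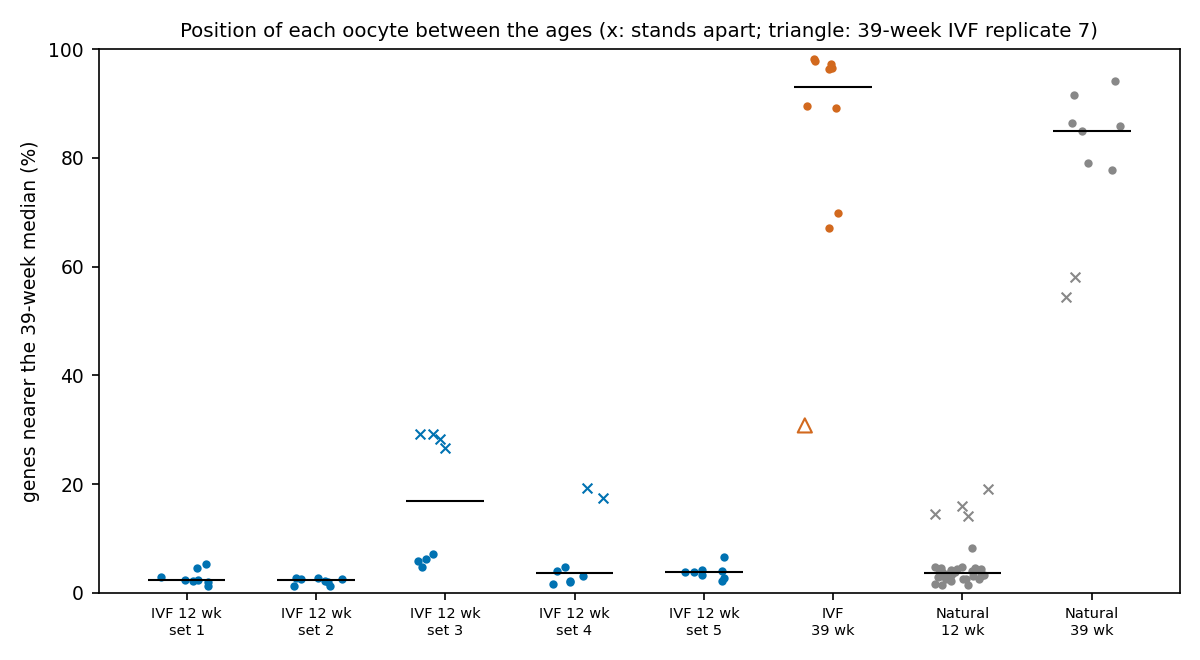
Percent of age-associated genes that were nearer the 39-week than the 12-week IVF median, 1 point per oocyte, with a bar at each group median, crosses for libraries that stood apart and a triangle for 39-week IVF replicate 7. The IVF oocytes of 12 weeks lie at 1.19 to 29.2%, those of 39 weeks at 67.2 to 98.2% apart from replicate 7 at 30.8%, and Natural oocytes fall on the same sides.

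Natural oocytes, which were no part of the IVF test but share its library batches, were read on a single list of genes common to all of them. On 727 genes, 32 Natural oocytes of 12 weeks had 1.51 to 8.25% nearer the older IVF median and the 4 that stood apart 14.2 to 19.1%, while 7 of 39 weeks had 77.9 to 94.1% and the 2 that stood apart 54.3% and 58.1%. The age test in Natural oocytes came from a fit of all 4 oocyte groups with a shared spread, whereas the IVF test used IVF sums alone. Counts from the Natural and IVF tests are therefore not directly comparable. IVF counts from a fit of all 4 groups are given below. In Natural oocytes 3278 of 21156 genes passed the age test (15.5%), 1933 higher (9.14%) and 1345 lower (6.36%). Of the 696 genes higher in IVF 664 had a positive value in Natural and 437 passed as higher there. Of the 360 lower genes 338 were negative and 263 passed as lower. Of the genes higher in IVF 2 passed in the opposite direction in Natural.

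Several of the genes described above passed in the same direction in Natural oocytes. Paip1 was at 1513 to 13278 CPM (median 3454) at 12 weeks in Natural (log2 fold change -6.66), Umodl1 rose by 2.45, Pabpn1l by 1.67, Wapl fell by 2.49 and Elavl2 by 2.65 on the log2 scale, and each passed the test. Zp2 rose by 1.76, Nobox by 1.89 and Eif4e1b by 2.56, and these passed as well. For other genes the Natural value was small. Gtsf1 had a log2 fold change of 0.02, Opa1 of -0.30, Fmn2 of 0.31 and Ripk1 of -0.49 in Natural, and none of these passed there.

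**Figure D5:**
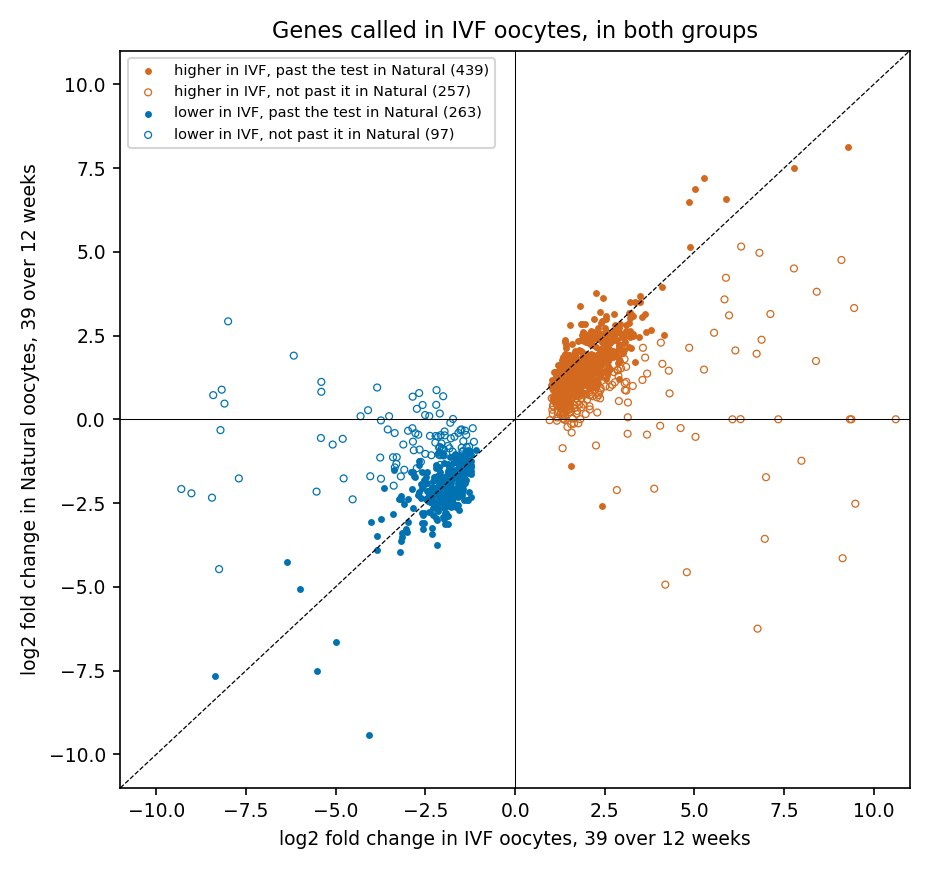
Log2 fold change of 39 over 12 weeks in Natural (vertical axis) against IVF oocytes (horizontal axis) for the 1056 genes past the test in IVF, filled where the gene also passed in Natural, with a dashed line of equal values. Of the 696 higher genes 664 lie above 0 in Natural and of the 360 lower genes 338 lie below 0, and both groups share their library batches.

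Whether the age difference itself differed between IVF and Natural oocytes was tested with an interaction term. None of 21156 genes passed edgeR's test (0.0% of those tested, smallest adjusted p = 0.147), while 2237 had an unadjusted p below 0.05 and DESeq2 called 80 genes with a positive and 214 with a negative difference (IVF minus Natural). Without the 12 oocytes of both groups that stood apart 4 of 20071 genes passed (0.0199%), 2 in each direction (0.00996% and 0.00996%), each at an adjusted p of 0.0240. These were Sgpp2, a sphingosine phosphatase (difference 4.47), Cldn4, a tight junction protein (-3.37), Prps2, which makes the sugar donor of nucleotide synthesis (-5.07), and the unnamed transcript Gm41533 (2.93).

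Sgpp2 was low at 12 weeks, with a median of 1.51 CPM in IVF, and at 39 weeks it reached 0.288 to 61.3 CPM (median 6.89), the top value being that of replicate 2 alone, while in Natural the medians were 4.02 and 0.449 CPM. Cldn4 was at 0 to 85.8 CPM (median 45.5) in young IVF and 0 to 23.0 CPM (median 2.90) in older IVF oocytes, against Natural medians of 37.4 and 28.0 CPM. Prps2 had a median of 20.2 CPM in young IVF oocytes and no more than 2.00 CPM in any older one, against Natural medians of 11.7 and 7.81 CPM. How many females gave the 39-week oocytes is not given in the sources used here.

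Agbl2 was the largest of the 10 rises without overlap in IVF, and its Natural value went the other way without passing (-4.56, adjusted p = 0.143). In Natural oocytes it was at 0 to 63.5 CPM (median 3.49) at 12 weeks and 0 to 3.65 CPM (median 0) at 39 weeks, so that all 10 older IVF oocytes, at 34.0 CPM or more, lay above all 9 older Natural ones. The Natural level at 12 weeks differed by set. It was 26.5 to 63.5 CPM in sets 1 and 2, except in replicates 10 and 14, which stood apart, at 15.4 and 9.07 CPM. In sets 3 to 5 it was 0 to 4.61 CPM. The difference between the age differences was 9.35 ± 2.77 (SE) and did not pass (adjusted p = 0.394). For H2-Aa the Natural log2 fold change was 0.54, and the difference of 2.34 ± 1.25 (SE) did not pass either.

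A further 7 genes, which the study names as differing between IVF and Natural oocytes at both ages, did not pass the age test in IVF oocytes. The study compared conception groups and not ages, so these values do not bear on its result. Il17f, a cytokine, was at 0 to 63.8 CPM (median 30.3) and 14.6 to 88.3 CPM (median 39.5) (log2 fold change 0.79 ± 0.96). Rfxank, a partner of Rfx5 on MHC class II promoters, had a value of 1.04 ± 0.38, Ethe1, a mitochondrial sulfur dioxygenase, 1.32 ± 0.38, and Hps5, of a lysosome-related organelle complex, 0.43 ± 0.32. Aurkc, the Aurora kinase of germ cells, was at 5.28 to 323 CPM (median 62.1) and 60.1 to 146 CPM (median 117) (0.57 ± 0.47). Bcat2, a branched-chain aminotransferase, and Cdc42ep3, an effector of Cdc42, had log2 fold changes of -0.30 ± 1.49 and 0.00 ± 1.35, and Bcat2 was at 24.3 CPM in set 1 against 1.10 to 1.95 CPM in the other sets.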

How the data were processed

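Single oocytes were sequenced as SMART-seq libraries, and the authors deposited raw read counts per gene in 1 table for each age. The submitters' processing notes name Trimmomatic 0.32, STAR 2.3.0e, featureCounts 1.5.0 and the mm10 build, while the study's methods name another trimming tool. Whether counting used strand is not given in the sources used here, so overlapping and antisense genes cannot be told apart. Of the deposited counts above 0, 72.8% were even at 12 weeks and 68.6% at 39 weeks, so counting error is larger than whole reads would give.

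The tables were joined on 35976 gene names. Counts were summed over each of the 5 sets of 8 oocytes that the 12-week library names give, and over the 10 oocytes of 39 weeks. Sums with enough counts by edgeR's default filter were compared with edgeR's quasi-likelihood test (edgeR 4.0.16, R 4.3.3, TMM scaling) with Benjamini-Hochberg adjustment at 0.05, and the lone 39-week sum was assumed to vary as a 12-week set does. The labels name no animals, so p-values measure only the spread between sets, which may be technical. The Natural comparison and the interaction between conception and age used sums made in the same way, in a single fit of all 4 oocyte groups that shared an estimate of the spread. Depth was 969774 to 10270378 counts per oocyte at 12 weeks and 2820748 to 31126357 at 39 weeks. An oocyte was said to stand apart when its median correlation with its group, over log2 CPM of genes with a mean of at least 5 CPM, was below 0.8.

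The members, gene lists and genes named were chosen with earlier results of these data known. The rule took the 10 largest rises and falls without overlap between oocytes and with a mean of at least 20 CPM in the higher age, leaving out predicted and unnamed genes, up to 4 members of each list by smallest adjusted p (or, with none past the test, the most abundant), genes of the study's account, and the 5 most abundant genes. Paip1, Umodl1, Sgpp2, Cldn4, Prps2, Gm41533, the genes that describe the libraries standing apart and further list members were named after their values were seen. Gene coordinates came from RefSeq (GRCm38.p6) and transcript structure from GENCODE vM21.

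Alternatives were single libraries in place of sums, DESeq2 1.42.0, size factors by the median of ratios, other filters, thinning to 839781 reads per oocyte, all 4 oocyte groups in a single fit, and leaving out each set or oocyte. Those without the libraries that stood apart were chosen after seeing the data. Scripts were tested on simulated data. Some genes that the rule named are not reported here. Tables of other tissues and the authors' other files were not used here. Other tools were limma 3.58.1, Python 3.11.15, numpy 2.4.6, pandas 2.3.3 and matplotlib 3.10.9.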

Additional observations from a re-analysis of the deposited data

Results flagged for a closer look

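In 43 of 227 groups of values, each of 5 sets or 10 oocytes, the highest or lowest value lay far from the others by Dixon's 95% criterion. Chance passes it in about 1 group in 20 only where values are normally distributed and were not chosen by their outcome. Neither holds here. Some genes, Paip1 and Sgpp2 among them, were named after their values were seen, and CPM can be skewed, as for ND3 and the globins. The 43 groups are therefore a description and not an excess over chance. No cause was tested for any of them.

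Replicate 7 of the 39-week IVF oocytes stood far from the other 9 in 4 quantities of its library. It had 23116 genes detected against 11277 to 14842, a mitochondrially encoded share of 0.336% against 0.114 to 0.219%, a summed level of spermatid markers of 187 CPM against 0 to 1.04 CPM, and 30.8% of age-associated genes nearer the older median against 67.2 to 98.2%. Its transcripts of spermatids were Prm1 at 34.9, Prm2 at 55.0, Tnp1 at 32.0 and Tnp2 at 47.0 CPM. It was the highest of the 10 in 15 of the 32 genes that fell and were named by rule. Over the 5924 genes compared, it was the highest in 606 and the lowest in 1469. Its distant values were Ube2s at 16.3 CPM, Plag1 at 73.9 CPM, Cdv3 at 278 CPM, Elavl2 at 114 CPM, Kitl at 7.67 CPM and, outside that rule, Paip1 at 1411 CPM. It was the lowest for Zp1, at 139 CPM against 285 to 438 CPM. Spin1 was at 25970 CPM against 12390 to 18830 CPM, and Zfp352, at 0 in the other 9, was at 2.88 CPM.

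Replicate 1 of the same age was the highest for blood and immune markers, with a sum of 27031 unscaled CPM against 4.84 to 13895 CPM. Its globins were Hbb-bs at 16980 CPM, Hba-a1 at 8736 CPM, Hbb-bt at 6380 CPM and Hba-a2 at 3237 CPM. It was also the highest for Dppa3, at 7230 CPM against 1666 to 4502 CPM, for Ezh2, at 279 CPM against 106 to 178 CPM, and for Tcstv3, at 35.6 CPM against 7.03 to 18.6 CPM.

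In the other oocytes of 39 weeks the distant values were those of 1 to 3 genes each. Replicate 2 had Card6 at 82.3 CPM, Hmox2 at 53.2 CPM and Sgpp2 at 61.3 CPM, the others reaching 51.2, 15.9 and 18.1 CPM. Replicate 3 had Ccdc71 at 103 CPM and Atg9a at 251 CPM, against highest values of 61.4 and 128 CPM. Replicate 4 was the only one with ND3 above 0, at 0.145 CPM, and replicate 8 had Il17f at 88.3 CPM against 14.6 to 49.3 CPM.

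Among the 12-week sets, set 1 was high in Wapl (298 CPM against 223 to 241) and Bcat2 (24.3 CPM against 1.10 to 1.95) and low in G6pdx (163 CPM against 279 to 321). Set 3, with 4 of the 6 oocytes that stood apart, was low in Ndufa10 (53.7 CPM), Gclm (19.2 CPM) and Gtsf1 (5.54 CPM), where the other sets started at 85.8, 32.6 and 7.39 CPM, and high in Aurkc (153 CPM against 59.1 to 75.0). Set 4 had Hba-a2 at 36.8 CPM against 0.375 to 6.83 CPM. Set 5 was high in Tmem169 (126 CPM), Zbed3 (33100 CPM) and Khdc1b (16020 CPM), against highest values of 96.8, 27710 and 12990 CPM in the other sets.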

How the results depend on the processing

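Of the genes tested, 696 were higher and 360 lower at 39 weeks. Other settings gave 1003 lower with the 39-week oocytes as single libraries (997 higher), 2153 higher and 1847 lower with all oocytes as single libraries, 1303 lower with DESeq2 (1003 higher), 612 lower with at least 10 counts in every sum (856 higher), 171 and 91 with thinned oocytes, and 1084 and 648 with all 4 groups in a single fit. Without the 6 oocytes that stood apart they were 1347 and 1230, with single 39-week libraries and without replicate 7 as well 1338 and 1271, and thinned without the 7 oocytes 1305 and 1267. Leaving out a 12-week set gave 353 to 1032 higher and 145 to 943 lower, and leaving out a 39-week oocyte 674 to 830 higher and 361 to 447 lower. Size factors by the median of ratios (603 and 382) and no filter (865 and 389) stayed within 1.5 times.

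The interaction, with 0 genes in either direction, gave 9 positive and 17 negative differences (IVF minus Natural) with single 39-week libraries, 80 and 214 with DESeq2, 2 and 2 without the 12 oocytes that stood apart, and 27 and 31 with both changes and without replicate 7. Leaving out a set or oocyte gave 0 positive and 0 to 1 negative, the 1 without IVF set 3 and without 39-week IVF replicate 8.

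Settings were compared for the 83 genes named by rule that passed the test, with Paip1 and Umodl1, and not for other genes named above. Of these 85 genes, none changed direction under any setting. Thinning lost 47 of them, single 39-week libraries 8, leaving out sets 1 to 5 lost 14, 30, 0, 29 and 23, and leaving out a 39-week oocyte 0 to 5. Thinned without the 6 oocytes and replicate 7, all 85 passed in the same direction. In the 47 the thinned log2 fold change was 0.628 to 1.30 times the full one (median 0.895). They were Atg14, Atp5a1, Atp5b, Aurkb, Bcl2l11, Canx, Ccnb3, Cdc25a, Cdca5, Ctcf, Dnajb1, Dnm1l, Dppa3, Fmn2, G6pdx, Gclm, Glrx, Gtsf1, Hba-a2, Hbb-bs, Hmox2, Hnrnpa1, Hspb1, Kitl, Kmt2d, Mdc1, Mrpl2, Mrpl22, Mutyh, Nlrp5, Opa1, Park2, Parp1, Phb2, Prkaca, Psmb6, Psme3, Rbm5, Rfx5, Ripk1, Srsf2, Tacc3, Trpm7, Tubb5, Tubg1, Xylb and Zp1. The cause was not tested.

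Genes that did not pass changed sign around 0. Rps27l (0.01) was at -0.252 and -0.178 with single libraries at 39 weeks and at both ages, -0.0602 with DESeq2 as with median-of-ratios factors, -0.0255 with the strict filter, -0.393 thinned, -0.0085 with 4 groups, -0.169 and -0.273 without the 6 oocytes (the latter with single libraries), -0.331 thinned without 7, and -0.303 to 0.270 leaving out a set or oocyte. In that order Cdc42ep3 (0.00) was at -0.0322, -0.0505, -0.0659, -0.0697 and -0.0212, then at -0.0252 with 4 groups, -0.189, -0.134 and -0.131, and at -0.359 to 0.920 leaving out a set or oocyte. Khdc1b (0.01) was at -0.0029, -0.0331, -0.0496 with DESeq2 as with median-of-ratios factors, -0.0257 and -0.268, and at -0.111 to 0.170 leaving out a set or oocyte. Bcat2 (-0.30) ranged from -0.631 to 1.56 without a set or oocyte, the last without set 1.

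No paired analysis was possible because the 12-week sets and the 39-week sum share no replicate numbers. Thinning makes depth equal per oocyte, but the sums tested still differ in depth, as they hold 8 oocytes per 12-week set and 10 at 39 weeks before any are left out. Thinned without the 7 oocytes, the counts were close to those unthinned without the 6, which kept replicate 7. The part of depth in the age difference was not tested further. Age and library batch change together, and no setting separates them.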
